A study of Mus musculus with 30 samples.

Results

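The regions described here are the FOXO1 binding sites of RAG1-/- pro-B cells that also carried E2A in the same cells. A site was counted when its 76 bp interval in the deposited FOXO1 list overlapped a 200 bp interval of the deposited E2A list by at least 1 bp. This held for 661 of 1575 FOXO1 sites (42.0%), which met 5.58% of the 11846 E2A sites. The other 914 FOXO1 sites and the 11185 E2A sites without FOXO1 serve as comparison sets, and the 24 lists of the series held 323966 intervals in all.

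FOXO1 is a forkhead transcription factor that the PI3K and AKT pathway keeps out of the nucleus, and in B cell progenitors it acts on genes for cytokine receptors and receptor gene rearrangement. E2A, encoded by Tcf3, is an E protein: a basic helix-loop-helix factor that binds E boxes as a dimer and is needed for B cell commitment. EBF1 acts beside E2A in that step, and Pax5 acts after it. Monomethylation of histone H3 lysine 4 (H3K4me1) is known mostly from enhancers, trimethylation (H3K4me3) from promoters, and dimethylation (H3K4me2) from both. Acetylation of H3 marks active regions, and H3K27me3 marks repressed ones. CTCF is a zinc finger protein that binds boundaries and loop anchors.

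All mice were C57BL/6. Sites of FOXO1, E2A, EBF1, CTCF and 5 marks came from RAG1-/- pro-B cells, sorted from femoral bone marrow on B220 beads and then cultured with IL-7 and SCF over 10 d. E2A and the same 5 marks were also measured in EBF-/- pre-pro-B cells, grown on S17 stromal cells with IL7, SCF and FLT3 ligand. E47-ER, full-length E2A fused to the ligand-binding domain of the estrogen receptor, was delivered by a retrovirus with the hCD25 surface tag into E2A-/- pre-pro-B cells and into A12, a single E2A-/- T cell line. After 21 h, infected cells received 1 µM tamoxifen for 1 h or 6 h in E2A-/- cells and for 6 h in A12 cells. The bHLH-ER counterpart lacked both activation domains. RNA came from E2A-/-, EBF-/- and RAG1-/- cells, 2 samples each. RAG1-/- cells differed from EBF-/- cells in culture as well as genotype, and these effects cannot be told apart.

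Each list was 1 library, so shares are given with Wilson 95% intervals, which cover counting error only, and no test was possible between lists. Lists differed in size, from 807 intervals of the mock immunoprecipitation to 38838 of CTCF, with 1402 of EBF1. Shares were therefore compared between sets of sites within 1 list and not between lists. The mock immunoprecipitation list, from wild-type lymphoid cells, held 0 of the 661 sites, which allows a share of up to 0.454% (3 counts). On the arrays, all 7 pro-B markers, among them Cd79a, Vpreb1, Igll1 and Pax5, were well above background in both RAG1-/- samples, at median log2 levels of 14.22 and 14.01. In EBF-/- cells 3 and 5 of them were, at medians of 5.24 and 5.44. E2A-/- replicate 1 stood apart from replicate 2, with 7 of 7 against 2 of 7 markers above background and medians of 10.33 and 5.16, and it shared an array with RAG1-/- replicate 1. Both EBF-/- samples lay above both RAG1-/- samples in 2 of 3 measured T cell markers (medians of the 3: 13.96 and 13.8 against 12.35 and 12.22), in both natural killer markers (11.13 and 11.11 against 6.97 and 5.58) and in both dendritic cell markers (10.02 and 9.96 against 4.89 and 3.8). The same held for 1 of 2 stromal markers, Pdgfrb (medians of the 2: 9.63 and 10.06 against 7.32 and 7.64), and for 2 of 5 myeloid markers (9.35 and 8.96 against 9.15 and 7.96). It held for 0 of 2 mast cell markers and not for the 1 erythroid marker measured. There, both RAG1-/- samples lay above both EBF-/- samples in 1 mast cell marker and in the erythroid marker. The part of such cells in the gene values was not tested, and in bulk samples fewer cells of a type and less RNA per cell cannot be told apart.

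The sites were chosen by the deposited FOXO1 and E2A intervals of RAG1-/- cells, so values of those lists are a description only. The median FOXO1 score of the shared sites was 9 (range 4 to 66), against 8 for FOXO1 sites without E2A. The median E2A score was 23 (range 9 to 122), against 13 for E2A sites without FOXO1. The sources used here do not say what the deposited scores count. The midpoints of the FOXO1 and E2A intervals lay a median of 40 bp apart, 407 pairs (61.6%) lay within 50 bp, and 459 sites (69.4%) lay wholly inside the E2A interval. Close to the limit, 35 sites overlapped by 20 bp or less and 20 other FOXO1 sites missed an E2A interval by 20 bp or less, with median FOXO1 scores of 8 and 7.5. The sites were spread over 20 chromosomes, with at most 53 on any of them and 1 on chromosome X. Of the gaps between neighbouring sites, 44 were under 50 kb.

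The 10 sites with the highest FOXO1 score show how varied the set was. Coordinates are of build mm8, as deposited. The highest score, 66, belonged to chr13:54435016-54435091, with an E2A score of 99. It lay 40.8 kb from the probe of Thoc3, a subunit of the mRNA export complex THO, and 41.6 kb from that of Cplx2. It carried H3K4me2 and H3 acetylation in RAG1-/- cells and was in all 3 E47-ER lists. The second, chr5:146565382-146565457 near the Mediator kinase gene Cdk8, had a score of 50 and also carried EBF1 in RAG1-/- cells and E2A in EBF-/- cells. The site chr2:160433738-160433813 near Zhx3 (score 37) lay at CTCF, and chr2:118991598-118991673 near Vps18 (score 33) lay at both EBF1 and CTCF. At chr3:115674860-115674935, 28.2 kb from S1pr1, the FOXO1 score was 30. The other 5 lay near Mirt1, Grasp and Il16, or had no named probe within 50 kb (2 sites), and 1 of those 2, with a score of 30, was in none of the other 21 lists. Over all 661 sites, 66 (9.98%) were in no other list, the median was 3 lists, 216 (32.7%) were in 5 or more and the most was 12.

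Array probe positions and site positions were both of build mm8, so a gene was assigned by the named probe closest to a site, within 50 kb. Such a probe was found for 458 sites (69.3%), at a median of 20.4 kb over all sites, and for 203 (30.7%) it lay within 10 kb. The promoters of 3 nearby genes are printed as RefSeq gives them on GRCm38.p6, each as the 250 bases before the start, written 5′ to 3′. Selenop, which encodes the selenium carrier selenoprotein P, was the only nearby gene with a higher level in RAG1-/- than in EBF-/- cells whose window held both motifs searched, and it was chosen after its values were seen. N4bp2, which encodes a partner of the ubiquitin ligase Nedd4, had 3 sites within 50 kb, and Cplx2 is a gene beside the site with the highest FOXO1 score. Capitals mark the forkhead letters GTAAACA or TGTTTAC (one the reverse complement of the other) and the palindromic E box CAGCTG. The windows are chr15:3270727-3270976, chr5:65763271-65763520 and chr13:54302306-54302555, all on the plus strand.
Selenop: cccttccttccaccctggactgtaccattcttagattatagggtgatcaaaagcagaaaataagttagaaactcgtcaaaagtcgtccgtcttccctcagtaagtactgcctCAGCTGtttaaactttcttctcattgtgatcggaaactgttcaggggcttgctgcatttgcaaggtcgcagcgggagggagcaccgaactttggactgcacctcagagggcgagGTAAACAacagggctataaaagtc
N4bp2: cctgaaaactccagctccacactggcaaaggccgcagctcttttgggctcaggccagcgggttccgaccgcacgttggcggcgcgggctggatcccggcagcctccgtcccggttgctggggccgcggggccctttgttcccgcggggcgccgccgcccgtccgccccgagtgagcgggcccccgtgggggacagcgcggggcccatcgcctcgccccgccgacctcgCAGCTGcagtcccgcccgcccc
Cplx2: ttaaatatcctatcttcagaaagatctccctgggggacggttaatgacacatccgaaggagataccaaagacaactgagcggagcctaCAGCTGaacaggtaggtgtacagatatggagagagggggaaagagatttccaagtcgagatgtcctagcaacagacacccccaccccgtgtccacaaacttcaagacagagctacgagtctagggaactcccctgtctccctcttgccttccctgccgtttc

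Over all 27025 genes with a RefSeq promoter, 3.54% of these windows held the forkhead letters, 14.7% the E box and 0.448% both. Of the 364 nearby genes tested, 270 matched a promoter, and 5.56%, 12.2% and 0.741% of those held them. For the nearby genes that were higher in RAG1-/- cells (97 matched of 136) the shares were 6.19%, 14.4% and 1.03%, and for those that were lower (65 of 86) they were 6.15%, 13.8% and 0%. Positions of the sites and of these windows are on 2 builds and were not set against each other.

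E2A was also listed at a minority of the shared sites in EBF-/- cells. There, 156 of 661 sites (23.6%, interval 20.5 to 27) overlapped an E2A interval, against 4.49% of FOXO1 sites without E2A and 16.7% of E2A sites without FOXO1. EBF1 lay at 62 sites (9.38%, interval 7.39 to 11.8), against 1.86% and 5.51%. CTCF also lay at 62 sites (9.38%), below the 17.3% of FOXO1 sites without E2A and near the 11.9% of E2A sites without FOXO1. Only 3 sites carried both EBF1 and CTCF.

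Histone marks separated the shared sites from each comparison set in a different way. H3K4me2 in RAG1-/- cells lay at 42.1% (interval 38.4 to 45.9) of the shared sites, near the 42.4% of E2A sites without FOXO1 and above the 27.4% of FOXO1 sites without E2A. H3K4me1 in RAG1-/- cells lay at 14.1% (11.6 to 16.9) of them, below the 28.8% of E2A sites without FOXO1 and near the 11.1% of FOXO1 sites without E2A. Counted within 1000 bp, H3K4me1 was nearer between the sets. It then lay at 34.3% (30.8 to 38) of the shared sites, 44.6% of E2A sites without FOXO1 and 29.4% of FOXO1 sites without E2A. H3K4me3 lay at 21.2% in RAG1-/- cells and 9.08% (7.12 to 11.5) in EBF-/- cells. FOXO1 sites without E2A had 24.9% and 20.8%, and E2A sites without FOXO1 had 17% and 9.89%. H3 acetylation lay at 22.7% of the shared sites in RAG1-/- cells and at 21.2% in EBF-/- cells. The repressive mark H3K27me3 lay at 1 site (0.151%) in RAG1-/- cells and at 0 in EBF-/- cells, which allows a share of up to 0.454%. The comparison sets were as low, with lists of 2130 intervals in RAG1-/- cells and 1311 in EBF-/- cells. FOXO1 sites without E2A had 0% and 0.109%, and E2A sites without FOXO1 had 0.152% and 0.17%.

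**Figure D1:**
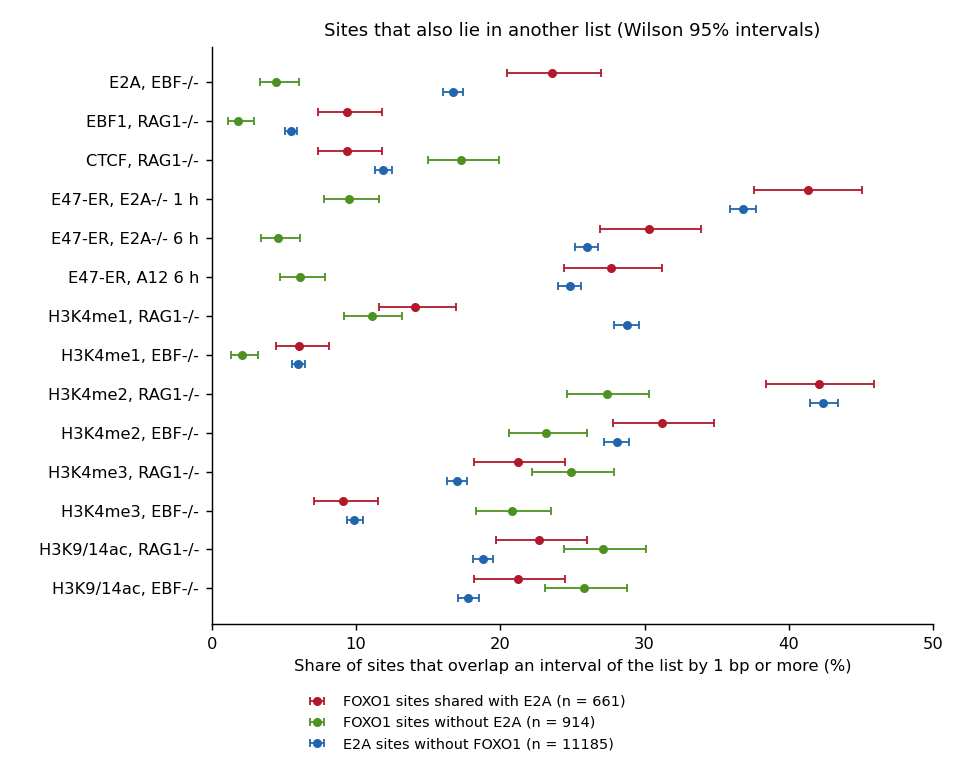
Share of sites (x axis, percent) that overlapped an interval of each list (y axis) for the 661 FOXO1 sites shared with E2A, the 914 FOXO1 sites without E2A and the 11185 E2A sites without FOXO1; bars are Wilson 95% intervals. The shared sites lie with the E2A sites for H3K4me2 in RAG1-/- cells (42.1% and 42.4%) and with the FOXO1 sites for H3K4me1 in RAG1-/- cells (14.1% and 11.1%).

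Since the shared sites had higher E2A scores than the other E2A sites, shares were also set side by side at matched E2A score, a step added after the pooled shares had been seen. The 4 score ranges were 9 to 10, 11 to 13, 14 to 21, and 22 and over. They held 79, 78, 149 and 355 of the shared sites, each represented here by its E2A interval. E2A in EBF-/- cells then lay at 8.86%, 7.69%, 13.4% and 36.6% of the shared sites, against 7.88%, 11.1%, 17.2% and 33.2% of E2A sites without FOXO1. E47-ER after 1 h lay at 29.1%, 28.2%, 38.9% and 53.8%, against 24.5%, 31.2%, 40.5% and 54.3%. For both lists the intervals of the sets overlapped in every score range, so the pooled gap was not seen at matched score. Those of E47-ER after 6 h in E2A-/- cells overlapped in every range as well. E47-ER in A12 cells was apart in the range of 14 to 21, at 17.4% (12.2 to 24.3) against 26.2% (24.6 to 27.8). In the other ranges its intervals overlapped. EBF1 lay at 5.06%, 3.85%, 7.38% and 13.2%, against 2.53%, 3.54%, 5.2% and 11.7%.

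At matched E2A score, some marks of RAG1-/- cells stayed apart in some ranges, as counts of 1 library without a test. H3K4me2 did not: it lay at 43%, 52.6%, 54.4% and 41.1% of the shared sites against 38%, 42.2%, 45.7% and 44.6%, with intervals that overlapped in every range. In the range of 22 and over, H3K4me1 lay at 31 of 355 shared sites (8.73%, interval 6.22 to 12.1) against 22.1% (20.5 to 23.8) of the other E2A sites. In the range of 11 to 13 it lay at 15.4% (9.03 to 25) against 32.5% (30.7 to 34.3), and in the remaining ranges the intervals overlapped (32.9% against 28.7% and 28.9% against 31.3%). H3K4me3 was commoner at shared sites of low E2A score: 44.3% (33.9 to 55.3) against 20.4% in the range of 9 to 10, and 44.9% (34.3 to 55.9) against 18.5% in the range of 11 to 13. In the upper ranges the intervals overlapped (18.8% against 15% and 16.1% against 13.1%). H3 acetylation was likewise apart in the lower pair of ranges and overlapped in the upper pair, with 38.0%, 43.6%, 22.1% and 20% of the shared sites against 21.5%, 19.6%, 16.5% and 17.1%. The lower pair of ranges was also apart for both marks in EBF-/- cells. There, H3K4me3 lay at 26.6% and 32.1% against 15% and 12.2%, and acetylation at 40.5% and 32.1% against 21.3% and 19.3%. In the upper pair the intervals of both marks overlapped in EBF-/- cells, and those of H3K4me1 in EBF-/- cells overlapped in every range.

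**Figure D2:**
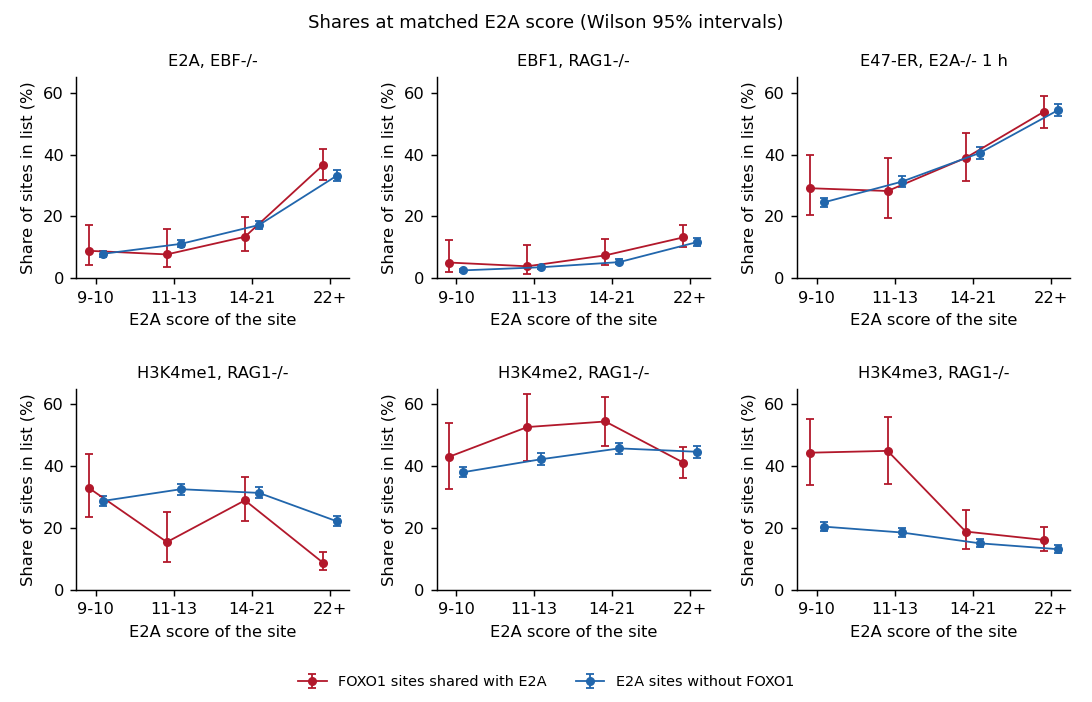
Share of sites in each list (y axis, percent) by the E2A score of the site (x axis) for FOXO1 sites shared with E2A and E2A sites without FOXO1; bars are Wilson 95% intervals. The sets run together for E2A in EBF-/- cells and for E47-ER after 1 h in E2A-/- cells. The shared sites of score 22 and over are lower for H3K4me1 (8.73% against 22.1%). Those of score 9 to 13 are higher for H3K4me3 (44.3% and 44.9% against 20.4% and 18.5%).

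An E2A interval of 200 bp meets more 1000 bp mark intervals than a FOXO1 interval of 76 bp. When each shared site was represented by its E2A interval, H3K4me1 in RAG1-/- cells lay at 16.9% (interval 14.3 to 20), still below the 28.8% of E2A sites without FOXO1. H3K4me2 lay at 45.7%, H3K4me3 at 23.4% and E47-ER after 1 h at 44.5% in that setting.

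The marks were also followed outward from the FOXO1 midpoint. In RAG1-/- cells, 24.1 H3K4me2 interval midpoints per 100 sites fell within 200 bp, then 9.98 at 200 to 400 bp, 9.98 at 400 to 600 bp, 7.87 at 600 to 800 bp and 2.57 at 800 to 1000 bp. H3K4me1 midpoints had another course, with 6.51, 4.39, 5.9, 8.17 and 5.45 per 100 sites in the same steps, so the most lay at 600 to 800 bp. H3K4me3 was flat near the site (7.41, 7.26 and 8.32) and then fell to 5.6. Within 1000 bp, 34.3% of the sites had H3K4me1, 58.7% H3K4me2 and 34.3% H3K4me3 in RAG1-/- cells. In EBF-/- cells those shares were 10.3%, 43.7% and 14.7%.

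**Figure D3:**
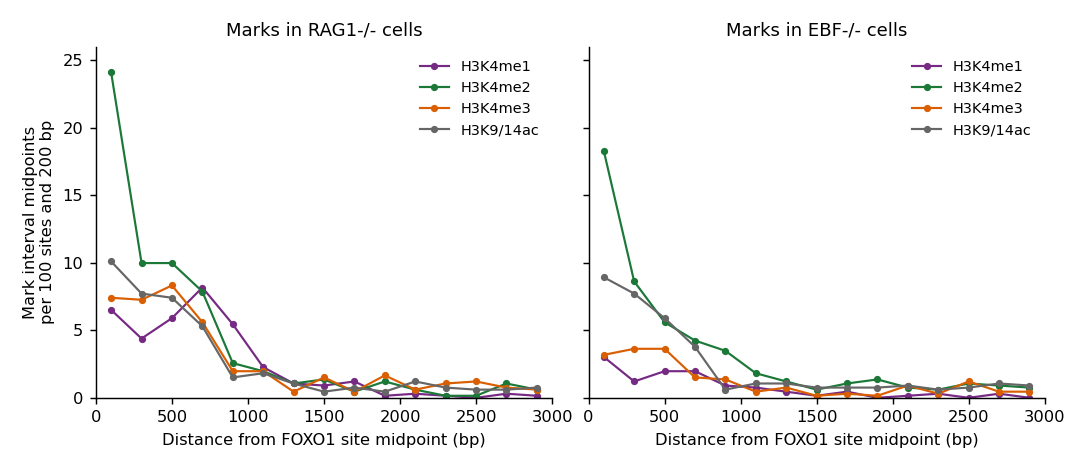
Midpoints of mark intervals per 100 FOXO1 sites shared with E2A (y axis) in 200 bp steps of distance from the FOXO1 midpoint (x axis, bp, both directions combined), in RAG1-/- cells (left) and EBF-/- cells (right). H3K4me2 peaks at the site in both (24.1 and 18.3 within 200 bp), whereas H3K4me1 in RAG1-/- cells has its highest step at 600 to 800 bp (8.17).

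Set against each other at the same site, the marks of EBF-/- and RAG1-/- cells overlapped in part. H3K4me2 was listed in both cell types at 143 sites (21.6%), in RAG1-/- cells only at 135 (20.4%), in EBF-/- cells only at 63 (9.53%) and in neither at 320 (48.4%). H3K4me3 was listed in both at 50 sites (7.56%), in RAG1-/- cells only at 90 (13.6%) and in EBF-/- cells only at 10 (1.51%). FOXO1 sites without E2A had the opposite balance, with 17.9% in both and 7.0% in RAG1-/- cells only. H3K4me1 was listed in both at just 9 sites (1.36%), although the RAG1-/- list held 23054 intervals and the EBF-/- list 7544. Acetylation was listed in both at 12.9%, in RAG1-/- cells only at 9.83% and in EBF-/- cells only at 8.32%. With 1 library a list, a mark absent from a list may lie under its threshold.

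E47-ER, once induced, was listed at the shared sites more often than at FOXO1 sites without E2A and at shares nearer to those of E2A sites without FOXO1. Its intervals lay at 273 sites after 1 h (41.3%, interval 37.6 to 45.1) and 200 after 6 h (30.3%) in E2A-/- cells, and at 183 in A12 T cells (27.7%). FOXO1 sites without E2A had 9.52%, 4.6% and 6.13%, and E2A sites without FOXO1 had 36.8%, 26% and 24.8%. Of the 661 sites, 109 (16.5%) were in all 3 lists and 334 (50.5%) in none, and of E2A sites without FOXO1 15.3% and 56.3% were. In E2A-/- cells 184 sites were listed at both times, 89 at 1 h only and 16 at 6 h only, with 26792 intervals in the 1 h list and 15386 in the 6 h list. At 38 sites (5.75%) E47-ER was listed in A12 cells and at neither time in E2A-/- cells. H3K4me1 in E2A-/- cells lay at 10.3% of the sites with bHLH-ER, 9.53% with E47-ER for 1 h and 8.17% with E47-ER for 6 h. Those lists held 17146, 18155 and 11169 intervals. E2A sites without FOXO1 had 9.63%, 10.4% and 8.17%, and FOXO1 sites without E2A had 7.11%, 6.67% and 3.94%. In A12 cells H3K4me1 lay at 7.26% with bHLH-ER and 6.35% with E47-ER, from lists of 11624 and 10185 intervals. E2A sites without FOXO1 had 6.88% and 6.62% there, and FOXO1 sites without E2A had 2.74% and 2.84%.

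The sites that E2A also occupied in EBF-/- cells were those most often met by E47-ER. Of the 156 such sites, E47-ER lay at 76.9% after 1 h, 69.9% after 6 h and 55.8% in A12 cells. Of the 505 sites with E2A listed in RAG1-/- cells alone, it lay at 30.3%, 18.0% and 19.0%. The E2A lists held 4531 intervals in EBF-/- cells and 11846 in RAG1-/- cells, so E2A absent from the smaller list may lie under its threshold. The median E2A scores of the 156 and the 505 sites in RAG1-/- cells were 37.5 and 20. Among sites with a score at or under 23 the 1 h shares were 70.3% (interval 54.2 to 82.5) and 27.1% (22.4 to 32.5), and among higher scores 79.0% and 34.8%. H3K4me2 in EBF-/- cells lay at 50.0% of the 156 and 25.3% of the 505 sites, while in RAG1-/- cells it lay at 38.5% and 43.2%. Above a score of 23, H3K4me2 in EBF-/- cells lay at 50.4% against 16.7% and acetylation at 27.7% against 8.57%. EBF1 in RAG1-/- cells lay at 7.05% of the 156 and 10.1% of the 505 sites. Conversely, E2A in EBF-/- cells lay at 6.59% of the 334 sites in no E47-ER list and at 61.5% of the 109 in all 3.

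Sites with H3K4me3 within 1000 bp in RAG1-/- or EBF-/- cells (230 of 661) were set against the 431 with it in neither. In RAG1-/- cells, acetylation lay at 46.5% of the former and 9.98% of the latter, CTCF at 13% and 7.42%, and H3K4me1 at 8.7% and 16.9%. E2A in EBF-/- cells (24.3% and 23.2%) and EBF1 (10.4% and 8.82%) were nearly level. Among the 62 sites with EBF1, H3K4me1 in RAG1-/- cells lay at 3 (4.84%) and H3K4me2 at 22 (35.5%).

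The levels of nearby genes were compared in limma over all 12472 genes tested, with Benjamini-Hochberg adjustment at 0.05. Of 443 genes nearest to a shared site, 364 were tested and 79 had no probe that passed the filter on dim signals. Between RAG1-/- and EBF-/- cells, 136 of the 364 (37.4%) were higher in RAG1-/- cells, against a background of 21.4% of all genes, and 86 (23.6%) were lower, against 22.9%. The median log2 change was 0.19, against 0.04 over all genes. Near FOXO1 sites without E2A, 27.8% of 528 tested genes were higher and 23.5% lower. Near E2A sites without FOXO1, 27.7% of 4009 were higher and 23.3% lower. Changes of more than 2-fold were called for 88 nearby genes up (24.2%, against 10.6% of all genes) and 48 down (13.2%, against 12.2%).

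The counts depended on both EBF-/- samples. Without EBF-/- replicate 1, 79 nearby genes were higher (21.7%, against 8.47% of all genes) and 45 lower (12.4%, against 9.83%), and without EBF-/- replicate 2, 85 were higher (23.4%, against 9.12%) and 48 lower (13.2%, against 10.6%). Among genes well above background in all 6 samples, 101 of 304 (33.2%) were higher, against 21.0% of all such genes, and 82 (27%) lower, against 25.2%. By E2A score of the site, 25.5%, 30.9%, 38.6% and 42.9% of the genes near shared sites were higher in RAG1-/- cells from the lowest to the highest range. Near E2A sites without FOXO1 these shares were 26.2%, 26%, 29.8% and 37.5%, and the Wilson intervals of the sets overlapped in every range. Lower were 23.5%, 20%, 18.1% and 26.6%, against 22.6%, 23.6%, 25.2% and 20.4%, also with intervals that overlapped in every range. Against 21.4% higher and 22.9% lower over all genes, genes near the 334 sites in no E47-ER list were higher in 42.4% of 165 cases and lower in 17%. Genes near the 62 CTCF sites were higher in 22.9% of 35 cases, near the share of all genes, and lower in 31.4%. Genes near the 156 sites with E2A in EBF-/- cells were higher in 34.4% of 93 cases and lower in 32.3%.

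**Figure D4:**
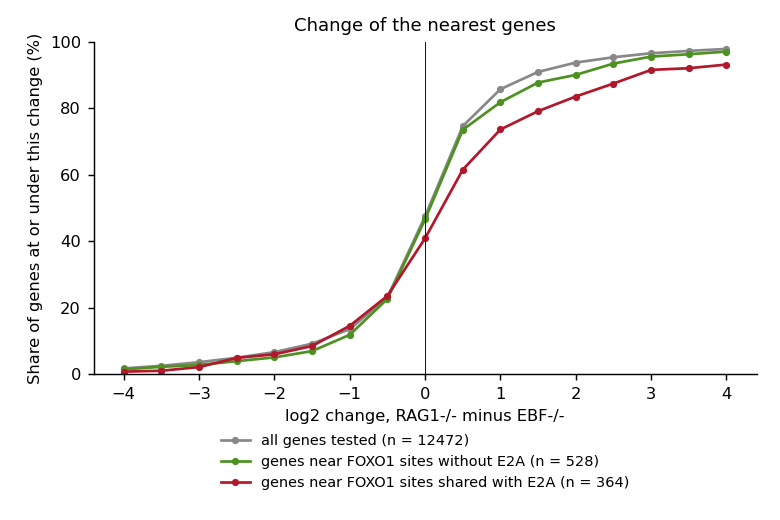
Cumulative share of genes (y axis, percent) at or under each log2 change between RAG1-/- and EBF-/- cells (x axis, positive when higher in RAG1-/-) for all 12472 genes tested, genes nearest to FOXO1 sites without E2A (528) and genes nearest to FOXO1 sites shared with E2A (364). The curve of the shared sites lies to the right of the others above 0. Of its 364 genes, 149 (40.9%) lie at or under 0, and 136 were called higher in RAG1-/- cells.

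The E2A-/- samples gave 2 further comparisons, which share samples with the first. In RAG1-/- against E2A-/- cells, 134 nearby genes (36.8%) were higher and 78 (21.4%) lower, against 23.0% and 23.2% of all genes. Without E2A-/- replicate 1 these counts were 110 (30.2%, against 16.8% of all genes) and 52 (14.3%, against 16%), and without E2A-/- replicate 2 they were 100 (27.5%, against 13.4%) and 46 (12.6%, against 13.2%). In EBF-/- against E2A-/- cells, 69 (19.0%) were higher and 52 (14.3%) lower, against 12.8% and 11.7%. The latter counts moved with each sample left out. They were 33 and 20 without E2A-/- replicate 1 (9.07% and 5.49%, against 6.14% and 4.15% of all genes) and 30 and 29 without E2A-/- replicate 2 (8.24% and 7.97%, against 5.83% and 4.51%). They were 16 and 14 without EBF-/- replicate 1 (4.4% and 3.85%, against 2.24% and 2.46%) and 12 and 9 without EBF-/- replicate 2 (3.3% and 2.47%, against 1.7% and 1.77%). Without either RAG1-/- replicate, 98 were higher (26.9%, against 21.9%) and 84 lower (23.1%, against 20.4% and 20.5%).

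For single genes, levels are log2 processed signals after quantile normalization, given in the order E2A-/- replicates 1 and 2, EBF-/- replicates 1 and 2, RAG1-/- replicates 1 and 2, and changes are RAG1-/- minus EBF-/- with their standard error (n = 2 per group). Foxo1 was at 8.61 and 7.02, 8.41 and 8.39, and 13.95 and 13.98. It was higher in RAG1-/- cells by 5.58 ± 0.44 (limma adjusted p = 0.00172). Pax5 was higher by 7.36 ± 0.69 (adjusted p = 0.00244), and Ctcf, with a site of its own at chr8:108575318-108575393 that was in 9 other lists, by 0.77 ± 0.09 (adjusted p = 0.00419). The 2 kept probes of Pax5 rose by 3.98 and 7.33. Ebf1 stood at 10.86 and 10.9 in EBF-/- cells and 12.56 and 12.39 in RAG1-/- cells. Tcf3 stood at 10.8 and 9.44 in E2A-/- cells, and Rag1 at 10.54 and 11.12 in RAG1-/- cells. The sources used here do not say whether these probes lie in the deleted parts of the genes, so the values do not check the labels. The differences of Ebf1 (1.62, adjusted p = 0.0492), Tcf3 (1.47, adjusted p = 0.0486) and Rag1 (1.16, adjusted p = 0.0279) each lost their call when either EBF-/- sample or RAG1-/- replicate 1 was left out (adjusted p of 0.0568 to 0.239).

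Some genes of the pre-B cell receptor and its signalling lay near shared sites. Of 14 tested genes of this list, 11 were higher in RAG1-/- cells (against 21.4% of all genes) and 1 lower, and 3 had a shared site within 50 kb. Blk, a Src-family kinase of B cells, was at 6.43 and 3.42, 3.34 and 4.2, and 11.42 and 11.6. Both RAG1-/- samples lay above all others, and Blk was not well above background in either EBF-/- sample, so it was at least 55-fold higher (adjusted p = 0.00502). Such a bound sets the brighter group's mean against the lowest signal that counts as above background in the dimmer group's samples. The site of Blk, chr14:62372583-62372658, had an E2A score of 24 and was in none of the other 21 lists. Igll1 and Vpreb1, the surrogate light chain genes, lay 34.0 and 27.7 kb from chr16:16809766-16809841, where EBF1 was also listed and whose nearest gene was Top3b. Vpreb1 was at 12.12 and 9.03, 9.12 and 9.02, and 18.6 and 18.44, a rise of 9.49 ± 0.87 (adjusted p = 0.00232). Igll1 was higher by 10.62 ± 1.93 (adjusted p = 0.0135, and 0.0735 without EBF-/- replicate 1), and both genes are also among the pro-B markers above.

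Of 22 tested transcription factors of the B lineage, 15 were higher in RAG1-/- cells (against 21.4% of all genes) and 1 lower, and Ikzf3, Ets1 and Runx1 were nearest to a shared site. Ikzf3, which encodes Aiolos, was at 7.01 and 6.73, 6.03 and 6.04, and 8.96 and 8.76, a rise of 2.83 ± 0.24 (limma adjusted p = 0.00191). All 4 kept probes of Ikzf3 rose, by 1.55 to 8.54. Its site at chr11:98309180-98309255 lay 8.81 kb from the probe and was in no other list. Ets1 was at 10.09 and 8.22, 11.95 and 11.88, and 14.05 and 14.15, with no overlap between groups. Its rise of 2.20 ± 0.50 (adjusted p = 0.0249) lost the call without EBF-/- replicate 1 (adjusted p = 0.13), EBF-/- replicate 2 (0.0503) or RAG1-/- replicate 1 (0.0797). Runx1, whose site chr16:92533738-92533813 was in 9 other lists, was at 11.23 and 10.93 in EBF-/- and 10.54 and 10.92 in RAG1-/- cells, with no call (adjusted p = 0.107).

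Of 19 tested known FOXO targets in lymphocytes, 10 were higher in RAG1-/- cells (against 21.4% of all genes) and 3 lower (against 22.9%), and Il7r, S1pr1, Ikzf3 and Cited2 were nearest to a shared site. S1pr1, the receptor that guides lymphocyte exit, was at 6.6 and 6.25, 7.57 and 7.31, and 10.29 and 10.0, a rise of 2.70 ± 0.23 (adjusted p = 0.00204). Il7r, the IL-7 receptor alpha chain, was at 11.56 and 11.6, 13.21 and 13.13, and 13.42 and 12.95. Its difference between EBF-/- and RAG1-/- cells did not pass the test (0.02 ± 0.16, adjusted p = 0.934, with the sign changing between settings), and it was higher in both than in E2A-/- cells (by 1.59 and 1.61, adjusted p = 0.00594 and 0.00238). The Il7r site, chr15:9436997-9437072, had an E2A score of 62. It was in all 3 E47-ER lists, and H3K4me1 lay there in EBF-/- cells, in E2A-/- cells with either construct and in A12 cells with E47-ER. Cited2 was lower by 0.98 in RAG1-/- cells (adjusted p = 0.0298), a call lost without either EBF-/- sample (0.167 and 0.0585). Bcl2l11, which encodes the death factor Bim and lay within 50 kb of a site nearer to Acoxl, changed by -2.42 ± 0.09 (adjusted p = 0.000437).

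Among 15 tested B cell surface genes, 11 were higher in RAG1-/- cells (against 21.4% of all genes) and 2 lower. Cd38, which encodes an enzyme that splits NAD, was at 4.48 and 3.25, 3.21 and 3.22, and 9.84 and 9.9 by its brightest probe. By that probe Cd38 was at least 17.6-fold higher in RAG1-/- than in EBF-/- cells (limma adjusted p = 0.00144). The rises of its 2 kept probes were unlike, at 2.15 and 6.65. Bst1, its neighbour and relative, was at 9.54 and 3.35, 6.33 and 6.01, and 14.46 and 14.0. Its rise of 8.14 ± 1.74 (adjusted p = 0.0214) was not called without EBF-/- replicate 1 (0.111), EBF-/- replicate 2 (0.0532) or RAG1-/- replicate 1 (0.0645). The 2 sites of this pair were unlike: chr5:44112846-44112921, nearest to Bst1, carried EBF1 and, in EBF-/- cells, E2A, whereas chr5:44173434-44173509, nearest to Cd38, was in no other list. Cxcr4, the chemokine receptor that holds progenitors in marrow, was higher by 1.30 ± 0.16 (adjusted p = 0.00472). Cd22 lay within 50 kb of a site nearer to Ffar1. Its shown probe was not well above background in either EBF-/- sample, and by it Cd22 was at least 21.1-fold higher (adjusted p = 0.0248), a call lost without EBF-/- replicate 1 (0.126), EBF-/- replicate 2 (0.0526) or RAG1-/- replicate 1 (0.0984).

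Of 10 tested genes of V(D)J recombination, 4 were higher in RAG1-/- cells (against 21.4% of all genes) and 0 lower. Dntt, the terminal transferase that adds bases at joints, was at 9.0 and 8.38, 12.6 and 12.51, and 15.12 and 16.46. It was higher in RAG1-/- than EBF-/- cells by 3.24 ± 0.31 (adjusted p = 0.00249) and in EBF-/- than E2A-/- cells by 3.88 ± 0.31 (adjusted p = 0.00405). Its site, chr19:41092605-41092680, had FOXO1 and E2A scores of 22 and 67, lay 2.75 kb from the probe and carried E2A in EBF-/- cells. Xrcc6, the Ku70 end-joining protein, had a site with an E2A score of 114 and no call (0.29 ± 0.10, adjusted p = 0.0725).

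Genes of some other lineages, near shared sites or not, were often lower in RAG1-/- cells. Of 11 tested T-lineage genes, 7 were lower (against 22.9% of all genes) and 1 higher, and of 11 progenitor genes, 10 were lower. Of 7 dendritic cell genes, 5 were lower and 0 higher. Myeloid genes were nearer to the share of all genes, with 3 of 11 lower and 1 higher. Of 3 stromal genes 1 was lower and 1 higher, and of 2 mast cell and 2 erythroid genes none was called. Lmo2, a progenitor factor, differed by -1.70 ± 0.32 (adjusted p = 0.0157; 0.0956 without EBF-/- replicate 1). Zap70, within 50 kb of a site nearer to Tmem131, changed by -2.32 ± 0.23 (adjusted p = 0.00274). Xcr1, a chemokine receptor of dendritic cells, was within 0.192 kb of a site and was not called (adjusted p = 0.506). The 9 tested natural killer genes, all lower, had no shared site within 50 kb. Of 19 tested cell cycle genes, 12 were higher in RAG1-/- cells (against 21.4% of all genes) and 5 lower (against 22.9%). Among the 5 was the growth regulator Mycn, which fell by 1.75 ± 0.15 (adjusted p = 0.0019), and its site at chr12:12965016-12965091, 1.53 kb from the probe, lay at CTCF.

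**Figure D5:**
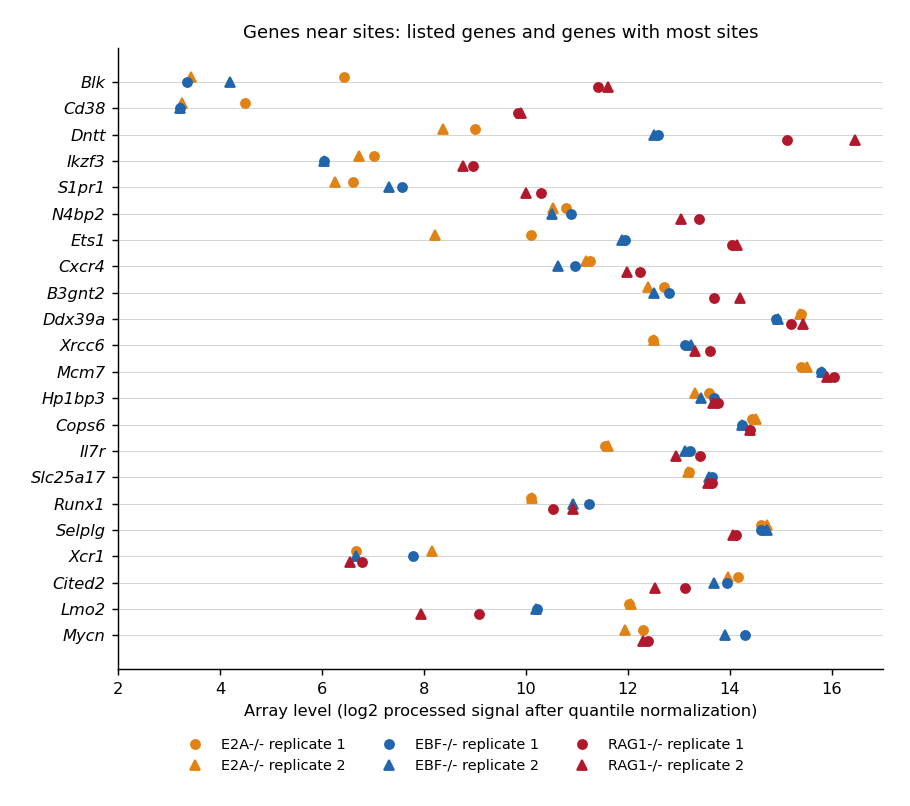
Level of each gene (x axis, log2 processed signal after quantile normalization) in the 6 samples for genes of the fixed lists nearest to a shared site and genes with most shared sites (y axis, ordered by the change between RAG1-/- and EBF-/- cells); each point is 1 sample. Blk and Cd38 show the widest gap between RAG1-/- and EBF-/- samples, and Il7r overlaps between them.

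The largest rises near shared sites were those of Cplx2, Car13, Bst1, Smtnl2, Adgre5, Blk, Rarres1, Pakap, Cd38, Gpat3, Pinlyp and Ankrd6. Cplx2, a complexin that clamps vesicle fusion, was at 10.35 and 3.11, 3.11 and 4.09, and 15.29 and 15.56. The shown probe was not well above background in either EBF-/- sample, and by it Cplx2 was at least 830.0-fold higher in RAG1-/- cells (adjusted p = 0.0128, and 0.0632 without EBF-/- replicate 1). All 4 of its kept probes were higher, by 6.42 to 11.83. Its nearest site, chr13:54385918-54385993, lay 2.33 kb from the probe and was in the E47-ER lists of E2A-/- cells at both times. Gpat3, an acyltransferase of lipid synthesis, was at 9.34 and 8.9, 7.66 and 7.59, and 13.91 and 13.79, and was higher by 6.23 ± 0.17 (adjusted p = 0.000374). Adgre5, the adhesion receptor CD97, was higher by 7.86 ± 1.14 (adjusted p = 0.00725).

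In E2A-/- replicate 1 the signals of all 12 genes passed the background limit, and in E2A-/- replicate 2 those of 2 genes did, where Adgre5 was lower than in replicate 1 by 3.72 and Gpat3 by 0.44. E2A-/- replicate 1 lay below RAG1-/- replicate 1, on the same array, by a median of 4.95 over the 12 genes (4.01 to 5.87). Bounds for the genes not well above background in EBF-/- cells were at least 89.2-fold for Car13, 98-fold for Smtnl2, 26.2-fold for Rarres1, 37.4-fold for Pakap, 12.3-fold for Pinlyp and 38.9-fold for Ankrd6. These bounds hold for the brightest probe, and the 3 kept probes of Pakap rose by 2.62 to 7.26. In all, 24 of the 136 higher genes and 2 of the 86 lower genes could be given only such a bound.

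The largest falls near shared sites were of Hs3st1, Wnt10a, Evi5, Ccl3, Abhd15, Psd3, Tbc1d16, Tcrb-V13, Cln8, Map3k8, Rabgap1l and Alox5ap. Hs3st1, a heparan sulfate sulfotransferase, was at 4.84 and 3.17, 9.76 and 9.59, and 3.77 and 2.94. It was at least 30.9-fold lower in RAG1-/- than in EBF-/- cells (adjusted p = 0.00353). The Wnt ligand gene Wnt10a was at least 18.3-fold lower (adjusted p = 0.00232). Ccl3, an inflammatory chemokine, was at 16.14 and 16, 14.21 and 14.02, and 11.42 and 9.78, and fell by 3.50 ± 0.50 (adjusted p = 0.00693). Psd3, an exchange factor for the GTPase Arf6, was high in EBF-/- cells alone, at 11.92 and 11.91 against 8.3 to 8.76 in the other samples, and Alox5ap, which serves leukotriene synthesis, fell by 2.63 ± 0.18 (adjusted p = 0.00125). Evi5 fell by 4.23, Tbc1d16 by 3.18 and Rabgap1l by 2.69. The kept probes of Evi5 changed by -4.23 to -2.18 and the 4 of Rabgap1l by -2.69 to -0.25. Tcrb-V13, a T cell receptor segment, was at 4.36 and 5.01, 7.24 and 7.41, and 4.33 and 3.98. Its shown probe was not well above background in either RAG1-/- sample, and by it Tcrb-V13 was at least 6.06-fold lower (adjusted p = 0.00491), with its call lost without either EBF-/- sample (0.0693 and 0.0522).

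Most genes had 1 shared site within 50 kb (951 genes), 67 had 2 and 2 had 3. B3gnt2, an enzyme that extends polylactosamine chains, had 3 sites over 19.2 to 39.5 kb from its probe, with FOXO1 scores of 16, 13 and 9. Only the one of E2A score 61 was in other lists, and those were the 3 E47-ER lists. B3gnt2 was at 12.7 and 12.39, 12.8 and 12.52, and 13.68 and 14.2, a rise of 1.28 ± 0.09 (adjusted p = 0.00147). N4bp2 also had 3 sites, and 2 of them were 1 pair of neighbours at chr5:66042616-66042691 and chr5:66044147-66044222. N4bp2 was at 10.78 and 10.54, 10.89 and 10.51, and 13.4 and 13.04, a rise of 2.52 ± 0.20 (adjusted p = 0.00175) with both RAG1-/- samples above all others. Of the genes with 2 sites and the highest signal, Mcm7, Cops6, Hp1bp3 and Slc25a17 were not called, Ddx39a (0.39 ± 0.10, adjusted p = 0.0311) was not called when any of 5 samples was left out in turn (0.054 to 0.245), and Selplg (-0.58 ± 0.07, adjusted p = 0.00455) lost it without either EBF-/- sample (0.0626 and 0.0598). Selenop was at 13.81 and 13.8, 13.71 and 13.79, and 14.34 and 14.45, a rise of 0.64 ± 0.08 (adjusted p = 0.00513, and 0.0693 without EBF-/- replicate 1).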

How the data were processed

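The 24 peak lists are the authors' own. Per the submitters' processing notes they were made with HOMER, and per the file headers positions are of build mm8. The deposited score of each interval was used only to describe or rank sites within a list. The aligner and threshold are not given in the sources used here. Overlaps of at least 1 bp were counted with Python 3.11.15 and pandas 2.3.3. RNA values are intensity signals of 4 two-colour arrays that, per the file headers, the authors read in version 9.5.3.1 of Agilent Feature Extraction. No label ties replicates to different animals or cultures, so p-values may measure technical spread only. The log2 of processed signals was quantile normalized over 6 channels, and 22133 of 41099 probes were kept, each well above background in every sample of some group. The brightest probe stood for its gene. limma 3.58.1 (R 4.3.3) fitted group and dye with array as a random block (correlation -0.0385), and p-values were adjusted over 12472 genes. With 2 residual degrees of freedom the number of arrays limits precision. On simulated data for RAG1-/- against EBF-/- cells the fit was checked for its recovery of known changes.

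Named genes were, of genes nearest to a site within 50 kb, the 12 with the largest called change in each direction without overlap of samples, those on fixed gene lists, the 8 with most sites, and the factors themselves. Sites named were the 10 of highest FOXO1 score and those of named genes. The members, lists and rules were chosen with earlier results of these data known. Alternatives covered the window, overlap, score, normalization, background correction, probe filter, dye, array, replicate block and each sample left out. Values of some single genes are not reported here.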

Additional observations from a re-analysis of the deposited data

How the results depend on the processing

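A mark or factor can lie beside a site without overlapping it, so shares grew when intervals within 1000 bp were counted. H3K4me1, H3K4me2, H3K4me3 and acetylation then lay at 34.3%, 58.7%, 34.3% and 35.2% of the shared sites in RAG1-/- cells and at 10.3%, 43.7%, 14.7% and 29.7% in EBF-/- cells. CTCF lay at 18.8%, E47-ER at 53.3% (1 h), 37.8% (6 h) and 37.1% (A12), and H3K4me1 in E2A-/- cells at 16.3% (bHLH-ER), 16.8% (E47-ER, 1 h) and 13.5% (E47-ER, 6 h). In A12 cells H3K4me1 lay at 9.98% with bHLH-ER and 8.77% with E47-ER. In the higher-scored part of the FOXO1 list 339 sites were shared, where acetylation lay at 24.5% in EBF-/- cells and H3K4me1 at 7.78% in RAG1-/- cells. Represented by E2A intervals, a choice made after seeing the data, 16.9% of the sites had H3K4me1 in RAG1-/- cells.

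Of the gene counts, a 10 kb window, which holds fewer genes, gave 59 higher and 45 lower in RAG1-/- against EBF-/- cells (34.5% and 26.3%), 35 and 21 in EBF-/- against E2A-/- and 56 and 38 in RAG1-/- against E2A-/-. Taking every gene with a probe in the window, which holds more, gave 260 and 191 (31.2% and 23.0%), 131 and 111, and 265 and 178. Over all genes, the shares for these comparisons, in the same order, were 21.4% and 22.9%, 12.8% and 11.7%, and 23.0% and 23.2%. Without the filter on dim probes, EBF-/- against E2A-/- gave 44 and 27 nearby genes and 1052 and 900 over the array, and the cause was not tested. The other scaling, background, probe, dye and array settings kept every count of nearby genes within 1.5 times.

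Leaving out 1 sample gave 79 to 135 higher and 45 to 100 lower nearby genes in RAG1-/- against EBF-/- cells, 12 to 98 and 9 to 84 in EBF-/- against E2A-/-, and 100 to 137 and 46 to 91 in RAG1-/- against E2A-/-. Over the array the ranges were 1056 to 2797 and 1226 to 3199, 212 to 2734 and 221 to 2554, and 1675 to 3059 and 1651 to 3333. A group then has a lone sample that is assumed to vary like the others. Of 43 named genes called, 31 stayed called without each sample in turn and 12 did not.

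Replicate numbers did not pair the samples: deviations of samples with the same number correlated at -0.4 (E2A-/- and EBF-/-), 0.167 (E2A-/- and RAG1-/-) and 0.011 (EBF-/- and RAG1-/-). With a replicate block, EBF-/- against E2A-/- gave 82 lower nearby genes and 2650 and 2470 genes over the array, and the other counts stayed within 1.5 times. With the numbers of the E2A-/- samples crossed in the replicate block, a choice made after seeing the data, it gave 38 and 29 nearby genes and 844 and 738 over the array.

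The change of Il7r turned to -0.18 with normexp, to -0.14 without EBF-/- replicate 2 and to -0.23 without RAG1-/- replicate 1, over a range of -0.23 to 0.26 with 1 sample left out. That of Xcr1 turned to 0.42 without EBF-/- replicate 1 (range -1.57 to 0.42) and that of Hp1bp3 to -0.02 without RAG1-/- replicate 1 (range -0.02 to 0.33). That of Slc25a17 turned to 0.01 with 75th percentile scaling, 0.03 with normexp, 0.04 without EBF-/- replicate 1 and 0.06 without RAG1-/- replicate 2 (range -0.08 to 0.06). None of these 4 genes was called with all samples.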
